A study of Mus musculus and Homo sapiens with 9 samples.

Results

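In HEK293 cells, a cell line derived from human embryonic kidney, 304 of 17178 peaks of the mouse IgG library overlapped by at least 1 bp both a peak of the FLAG-MCM8 library and a peak of the S9.6 library. These 304 regions, called members here, were chosen by that overlap, so the overlap of these 3 lists and the strength of the members within them are described and not tested. Of the other IgG peaks, 359 overlapped a FLAG-MCM8 peak and no S9.6 peak, 525 overlapped an S9.6 peak and no FLAG-MCM8 peak, and 15990 overlapped neither. Only peaks on chromosomes 1 to 22, X and Y of hg38 were counted.

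The study mapped R-loops and MCM8 binding by CUT&Tag in wildtype HEK293 cells, with 1 library per group. The antibodies were mouse IgG, anti-FLAG in cells transfected with a FLAG-MCM8 plasmid, S9.6, and S9.6 in cells transfected with a plasmid labelled RNH1, a name the study uses for RNase H1. The peak list of the last library is called the RNH1 list. MCM8 was therefore read as a tagged protein made from a plasmid, and cells with an anti-FLAG antibody but no tagged protein were not analysed here. With 1 library per group no p-value was computed. The 95% intervals given below (Wilson for a share, Newcombe for a difference) cover counting error among peaks only and say nothing of the spread between cultures.

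In CUT&Tag an antibody tethers the transposase Tn5, which cuts and tags the DNA beside the antibody's target. IgG has no chosen target, so its peaks show where tagged DNA gathered without one. S9.6 binds the RNA-DNA hybrid of an R-loop, in which RNA pairs with the template strand and displaces the other strand, and RNase H1 degrades the RNA of such hybrids. MCM8 is a helicase of the minichromosome maintenance family that acts in homologous recombination. A tandem repeat is a short unit of DNA copied head to tail. In the human genome such arrays are common near chromosome ends, and their number of copies differs between genomes, so a cell line can hold more copies than the reference to which its reads are aligned. The number of copies in these HEK293 cells was not measured here.

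A feature of the lists bears on any overlap between them. At the MCM8 gene, where 0 members lay, the strongest peak of the FLAG-MCM8 list (chr20:5967426-5968037, fold 21.6) had the same start and end as peaks ranked 1 in S9.6 (fold 19.7) and 4 in the RNH1 list (fold 17.7), although the S9.6 label names no transfection. The IgG list had 0 peaks over MCM8. Whether fragments of one library entered another was not tested. At the members, 0 FLAG-MCM8 peaks and 2 S9.6 peaks had the same start and end as the IgG peak.

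The reference sequence at the IgG summits is shown first, because many of the later results turn on it. The following 6 members lay in tandem repeats. Each line gives the 50 bases on either side of the summit on the plus strand of hg38. The capitals mark the first repeat step of the window (48, 9, 20, 15, 9 and 33 bp in the order shown). A step is a shift at which the sequence matches itself well, and it can hold several similar copies of a shorter unit.

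chr16:1025354-1025454, between genes: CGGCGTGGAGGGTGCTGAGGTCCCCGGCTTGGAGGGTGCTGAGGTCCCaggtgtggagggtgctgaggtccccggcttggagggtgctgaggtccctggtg
chr1:31431799-31431899, intron of SERINC2: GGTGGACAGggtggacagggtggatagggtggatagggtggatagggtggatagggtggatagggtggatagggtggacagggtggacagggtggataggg
chr5:1539940-1540040, between genes: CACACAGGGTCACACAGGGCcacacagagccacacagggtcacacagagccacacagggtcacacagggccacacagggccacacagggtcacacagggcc
chr6:165619432-165619532, intron of PDE10A: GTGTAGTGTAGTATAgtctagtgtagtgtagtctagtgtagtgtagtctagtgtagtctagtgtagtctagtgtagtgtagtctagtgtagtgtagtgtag
chr22:17877039-17877139, promoter of MICAL3: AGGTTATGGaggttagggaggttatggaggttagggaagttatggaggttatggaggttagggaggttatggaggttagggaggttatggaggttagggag
chr5:181088899-181088999, between genes: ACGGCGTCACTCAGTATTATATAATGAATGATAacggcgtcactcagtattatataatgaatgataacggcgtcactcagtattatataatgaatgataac

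The next 4 windows show summits outside tandem repeats, with every CG pair in capitals (0 in the KIF5C window). The pair from chromosome 21 has copies elsewhere in the genome, whereas the summits at the promoters of KIF5C, a kinesin motor, and ANXA7, a calcium-dependent membrane-binding annexin, occur in a single place.

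chr21:8807081-8807181, exon of the noncoding gene ENSG00000286033: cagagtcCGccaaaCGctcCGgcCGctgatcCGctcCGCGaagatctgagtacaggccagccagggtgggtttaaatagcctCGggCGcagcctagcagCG
chr21:8987083-8987183, over MIR3648-2: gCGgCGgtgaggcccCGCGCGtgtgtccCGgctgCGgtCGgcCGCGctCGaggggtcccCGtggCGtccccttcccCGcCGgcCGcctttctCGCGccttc
chr2:148933985-148934085, promoter of KIF5C: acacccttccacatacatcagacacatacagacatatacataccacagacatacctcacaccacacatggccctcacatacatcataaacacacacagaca
chr10:73413848-73413948, promoter of ANXA7: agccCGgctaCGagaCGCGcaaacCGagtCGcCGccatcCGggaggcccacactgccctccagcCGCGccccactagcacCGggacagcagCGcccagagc

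To put a number on such repetition, the 150 bp on either side of each summit were compared with themselves shifted by 1 to 120 bp, and a summit was counted in a tandem repeat when more than 60% of bases matched at the best shift. By this measure 126 of the 304 members lay in a tandem repeat (41.4%, 36.0 to 47.1%), beside 2.51% of all IgG peaks. The share was 12.8% in the IgG peaks with a FLAG-MCM8 peak only, 13.0% in those with an S9.6 peak only and 1.20% in those with neither. The members exceeded the last class by 40.2 percentage points (34.8 to 45.9), and the FLAG-MCM8-only class by 28.6 points (22 to 35.0). Sequence was not used to choose the members, but this measure was added after the data had been seen.

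**Figure D1:**
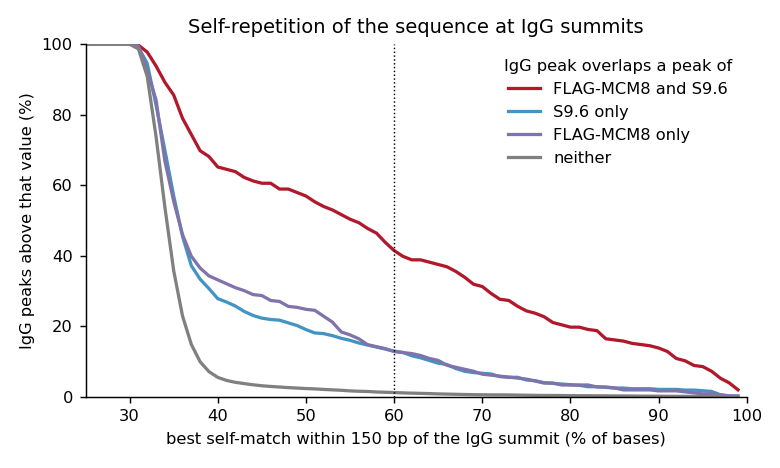
Share of IgG peaks (y axis, %) whose best self-match over 150 bp on either side of the summit exceeded the value on the x axis (% of bases), with 1 line for each overlap class and a dotted line at 60%. At that line the members reach 41.4% and the IgG peaks with neither list 1.20%, and the line of the members stays above the others from 40% to 90%.

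Most of the tandem members had repeat steps of minisatellite length, though a step can be a multiple of a shorter unit. The repeat step was 10 to 60 bp in 89 of the 126, at most 9 bp in 23 and over 60 bp in 14, with a median of 34 bp. The median best match was 78.4% of bases, and it ran from 60.3% to 100%, the latter at a 39-bp repeat in an intron of LGR5. The 33-bp repeat printed from chromosome 5 matched at 99.6% of bases. The strands of these repeats were uneven in G and C: the difference of the G and C counts divided by their sum had a median size of 0.478 in tandem members, 0.198 in members in a single place and 0.295 in all members. Over all summits of the other classes it was 0.143 with FLAG-MCM8 only, 0.131 with S9.6 only and 0.103 with neither list. A window holding at least 4 runs of GGG spaced by 1 to 7 bases on either strand, the letter pattern of a G-quadruplex, occurred in 7.14% of tandem members and in 13.5% of all members. The share was 15.0% in the IgG peaks with S9.6 only, 10.3% in those with FLAG-MCM8 only and 4.82% in those with neither, and the members' differences from the first 2 of these classes (-1.56 points, -6.30 to 3.57, and 3.18 points, -1.75 to 8.28) were within counting error. Repeats of the telomere unit were rare, and 2 adjacent copies of TTAGGG on either strand occurred in 0.329% of members.

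The remaining members were of 2 kinds. In 45 the summit had copies more than 10 kb away, counted as 31-base words of the window that recur exactly in hg38, and in 133 it had none. The members with copies elsewhere had few of them: a summit word occurred 6 times at the median and 26 times at most. Among the 1988 IgG peaks with neither list that had such copies, the median was 11 and the highest 15062, and 26.6% had at least 100 copies, beside 0 of the 45 members. The share with at least 100 copies was 17.6% of the 34 such peaks with FLAG-MCM8 only and 14.7% of the 68 with S9.6 only. A summit was called multi-copy when its median word occurred at least 2 times, near or far, and 40.8% of members were (35.4 to 46.4%), beside 13.6% of all IgG peaks.

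The RNH1 list was not used to choose the members. A peak of that list overlapped 255 of 304 members (83.9%, 79.3 to 87.6%), beside 4.82% of all IgG peaks. The members all had an S9.6 peak, and the RNH1 library was also made with S9.6. A closer comparison is therefore with peaks shared by FLAG-MCM8 and S9.6 that overlap no IgG peak. Of the FLAG-MCM8 peaks, 82.1% of those over members had an RNH1 peak and 65.4% of those shared without IgG. That difference was 16.7 points (11.5 to 21.3). The share was 38.5% in IgG peaks with an S9.6 peak only, 19.2% in those with a FLAG-MCM8 peak only and 1.89% in those with neither, and the members exceeded the S9.6-only class by 45.4 points (39.2 to 50.9). By kind, the share was 88.9% in tandem members, 93.3% in members with copies elsewhere and 75.9% in members in a single place. Among the tandem repeats of the other classes it was 61.8% with S9.6 only (49.9 to 72.4%), 45.7% with FLAG-MCM8 only and 18.8% with neither, beside 82.2 to 93.3% for the interval of the tandem members.

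**Figure D2:**
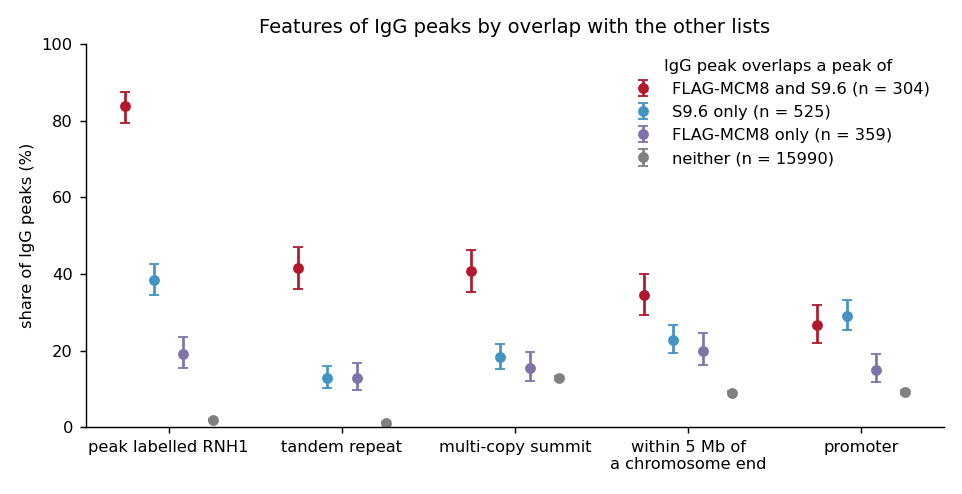
Share of IgG peaks (y axis, %) with each of 5 features, for the 304 members (red) and the 3 other classes of IgG peaks; points are shares and bars 95% Wilson intervals. The members lie highest for an RNH1 peak (83.9%), a tandem repeat (41.4%), a multi-copy summit (40.8%) and a position near a chromosome end (34.5%), whereas their promoter share (26.6%) overlaps that of the IgG peaks with S9.6 only (29.1%).

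The strongest members carried a peak in every list. The region chr16:1025259-1025661, 24534 bp from the nearest transcription start site (TSS), had a fold of 15.0 for IgG, 21.6 for FLAG-MCM8, 21.98 for S9.6 and 22.1 for the RNH1 list, and its 48-bp repeat matched at 97.2% of bases. In SERINC2, which encodes a membrane protein of the serine incorporator family, chr1:31431771-31432179 had folds of 13.9, 18.6, 18.1 and 19.5 in the same order. On chromosome 21, chr21:8807017-8808082 had folds of 6.52, 8.16, 9.92 and 9.18. These 3 regions ranked 3, 4 and 5 in the IgG list and 4, 5 and 7 in the FLAG-MCM8 list. The deposited fold is a ratio to the background around the peak within 1 library, so it was used here only to describe each list.

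To set libraries side by side, the pileup of fragments at each summit was recovered from the deposited fold and p and divided by the lowest background of its list, which stands in for depth. For the other lists it was read at the summit of their strongest peak over the member, not at the IgG summit. Those summits lay a median of 149 bp (FLAG-MCM8) and 137.5 bp (S9.6) from the IgG summit, so the values of a member can come from different bases. This scaled pileup had a median over members of 8.98 for IgG, 12.1 for FLAG-MCM8, 14.3 for S9.6 and 15.4 for the RNH1 list. Member by member it was higher in FLAG-MCM8 than in IgG in 244 of 303 (median ratio 1.30), and higher in S9.6 than in IgG in 250 of 302 (median ratio 1.53). The members had to pass the calling threshold in the first 3 of these lists, so these ratios are a description. At the repeat of chr5:1539746-1540307, for example, the scaled pileup was 31.4 for IgG, 39.2 for FLAG-MCM8, 43.0 for S9.6 and 52.9 for the RNH1 list.

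**Figure D3:**
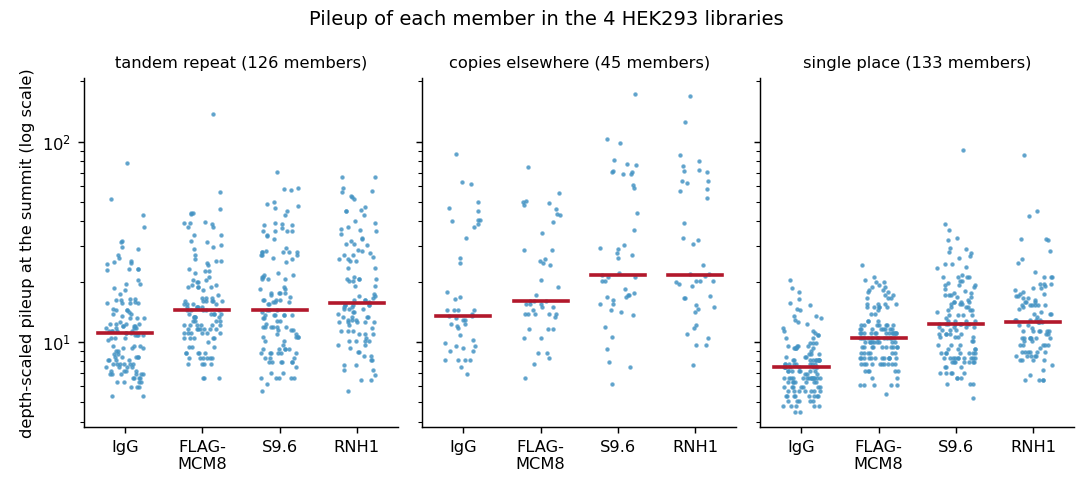
Depth-scaled pileup (y axis, log scale) of each member in the 4 HEK293 libraries (x axis), in separate panels for members in a tandem repeat, with copies elsewhere and in a single place. It is read at the IgG summit for IgG and at the summit of the strongest overlapping peak for the other libraries. Points are members and red lines medians, and members without a solved value in a library are left out. The medians over all members run from 8.98 in IgG to 15.4 in the RNH1 list, and the cloud of IgG overlaps those of the other libraries in every panel.

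The 2 S9.6 libraries were then compared with each other at the members. The scaled pileup in the RNH1 list divided by that in S9.6 had a median of 0.985 over 253 members and was above 1 in 113. Over all 4374 S9.6 peaks with a peak in that list the median was 0.920. The median was 1.02 in tandem members, 0.950 in members with copies elsewhere, 0.945 in members in a single place and 0.880 in members at promoters. The quartiles of the members, 0.818 and 1.18, were wider than the distance between these medians, and members without an RNH1 peak have no value in these ratios.

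The local background gives the fragments around a peak relative to the lowest background of its list. It had a median of 1.64 in IgG at the members, beside 1.35 in the IgG peaks with FLAG-MCM8 only, 1.39 in those with S9.6 only and 1.09 in those with neither. It was 3.13 at members with copies elsewhere, 1.86 at tandem members and 1.40 at members in a single place. In the FLAG-MCM8 list the background at members had a median of 1.62 and lay below the scaled IgG pileup in 303 of 303 members, and in the S9.6 list it had a median of 2.15 and lay below it in 301 of 302. The backgrounds of these lists, read at their strongest peak over each member, thus stayed under the IgG pileup of that member. Whether IgG served as input in peak calling is not stated in the sources used here.

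Promoters formed the next group. A midpoint within 1 kb of a TSS was found in 81 members (26.6%, 21.99 to 31.9%), beside 10.2% of all IgG peaks. The members exceeded the IgG peaks with neither list by 17.4 points (12.8 to 22.7), but the difference from the IgG peaks with S9.6 only was -2.50 points (-8.65 to 3.93) and within counting error. By kind, 57 of these promoter members were in a single place, 17 had copies elsewhere and 7 were tandem repeats. Of the other members, 132 lay in introns (43.4% of all members). The intron share was 48.2% in the IgG peaks with neither list, 45.7% with FLAG-MCM8 only and 37.3% with S9.6 only. Between genes lay 78 members (25.7%), beside 36.2%, 30.9% and 24.6% in the same order. Coding exons held 5 (1.64%, beside 3.11%, 5.01% and 4.95%) and other exons 8 (2.63%, beside 3.22%, 3.34% and 4%).

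Within 1 kb of a protein-coding TSS lay 51 members in a single place, of which 48 had an RNH1 peak. Their windows had a median GC content of 62.4% and a median ratio of observed to expected CG pairs of 0.702, the composition of CpG island promoters, beside a median ratio of 0.369 over all members. The scaled pileup of these promoters ran from 4.79 to 10.5 in IgG (median 6.58), from 5.52 to 19.9 in FLAG-MCM8 (median 10.5) and from 7.03 to 90.9 in S9.6 (median 15.4). It was higher in S9.6 than in IgG at 50 of 51, with a median ratio of 2.53. These promoters had passed calling in both lists, so that ratio is a description. They included genes of basic cell functions, such as HNRNPA1 (a splicing factor), CNOT1 (the scaffold of a deadenylase complex), TOMM40 (the channel for protein import into mitochondria) and DYNLL1 (a dynein light chain), which were picked as examples after their values were seen.

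Single promoters differed in how far S9.6 stood above IgG. At FARP2, a guanine nucleotide exchange factor, chr2:241355155-241355545 had a scaled pileup of 8.38 for IgG, 18.8 for FLAG-MCM8, 90.9 for S9.6 and 86.1 for the RNH1 list. At ANXA7 (chr10:73413555-73414043) the values were 7.48, 6.62, 19.8 and 15.8. At KIF5C (chr2:148933500-148934879), whose summit is the CA-rich sequence printed above, they were 10.5, 9.38, 7.91 and 6.46, so IgG was the highest of the 4. The histone gene H2AC11 (chr6:27132899-27133229) had 5.39, 11.0, 13.6 and 12.9 and was the only clustered histone locus among the members.

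Of the 7 promoter members in tandem repeats, whose scaled IgG pileup ran from 8.38 to 25.4, the 3 of highest IgG fold are given. At MICAL3, an enzyme that oxidises actin, chr22:17876707-17877419 had a scaled pileup of 19.4 for IgG, 25.4 for FLAG-MCM8, 35.6 for S9.6 and 36.4 for the RNH1 list. At RPTOR, a subunit of the growth-regulating kinase complex mTORC1, chr17:80744054-80744373 had 20.3, 25.4, 47.9 and 45.7. At CPNE7, a copine, chr16:89587839-89588236 had 25.4, 25.9, 44.8 and 53.3. In each of these 3 promoters IgG was the lowest of the 4 values. The lowest of the 7, at ZDHHC20-IT1, lay within the range of the single-place promoters.

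The members also gathered near chromosome ends, where 105 lay within 5 Mb of an end (34.5%, 29.4 to 40.05%), beside 10.2% of all IgG peaks. The members exceeded the IgG peaks with S9.6 only (22.9%) by 11.7 points (5.32 to 18.1). By kind, the share was 54.8% in tandem members, 24.8% in members in a single place and 6.67% in members with copies elsewhere. Among the tandem repeats of the other classes it was 51.5% with S9.6 only (39.8 to 62.9%), 28.3% with FLAG-MCM8 only and 35.9% with neither, and the interval of the first overlapped that of the tandem members (46.1 to 63.2%). Tandem members lay a median of 3.91 Mb from the nearest end. Members were 1.77% of all IgG peaks. By chromosome, they were 8.38% of the 167 IgG peaks of chromosome 21 (5.06 to 13.6%) and 3.34% of those of chromosome 16. They were 0.306% of the 981 of chromosome X (0.104 to 0.895%) and 0.275% of the 363 of chromosome 15. On chromosome 21, 10 of the 14 members had copies elsewhere, and the interval treats them as separate peaks.

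Some members stood side by side. Linked at 100 kb, the 304 members formed 265 places, of which 241 held 1 member and 24 held 63. The largest run, chr1:228556442-228645342, held 8 members. RNA5S genes, which encode the 5S RNA of the large ribosomal subunit, stand there as repeated copies. Of the 8 members, 7 lay within 1 kb of an RNA5S gene and overlapped none of them. These 7 had a scaled pileup of 32.9 to 46.7 for IgG, 39.7 to 55.2 for FLAG-MCM8, 58.9 to 77.3 for S9.6 and 62.2 to 79.6 for the RNH1 list. All 7 were lowest in IgG, and FLAG-MCM8 exceeded it by a median ratio of 1.07 and S9.6 by 1.76. Reads from identical copies cannot be told apart, so the number of separate 5S peaks is uncertain.

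The second largest run lay at chr1:2522510-2758786, over PANK4, MMEL1 and TTC34, with 7 members, of which 6 were tandem repeats and 6 had an RNH1 peak. The widest of them, chr1:2652907-2654521 in an intron of TTC34, spanned 1615 bp and had a scaled pileup of 51.8 for IgG, 43.6 for FLAG-MCM8, 70.3 for S9.6 and 66.3 for the RNH1 list. FLAG-MCM8 was above IgG in 2 of these 7 and S9.6 in 6. At 2 members on coding exons of HRNR, which encodes the repeat-rich epidermal protein hornerin, the scaled pileup was 15.6 and 15.9 in IgG, with 13.8 and 12.1 in FLAG-MCM8, so IgG was the higher in both.

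On the short arm of chromosome 21, 2 runs of 4 members each were formed by summits with copies elsewhere. The first, chr21:8798358-8884848, held chr21:8807017-8808082, which had the highest scaled IgG pileup solved among the members (86.5, with 74.5 for FLAG-MCM8, 172.2 for S9.6 and 169.7 for the RNH1 list). The second, chr21:8986926-9083744, began over the microRNA gene MIR3648-2 at chr21:8986926-8987449, with 49.96, 28.7, 70.7 and 70.3. In both of these peaks IgG was above FLAG-MCM8 and below S9.6. In the first run FLAG-MCM8 exceeded IgG in 1 of 4 members, and in the second in 2 of 4.

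Genes were also looked up by name. Within 1 kb of MCM8, MCM9, HROB, DDX5, DHX9, CDK4, GMNN, USP37, FBXO4, RNASEH1 and RNH1 lay 0 members, and near the ribosomal protein genes 0. Apart from MCM8, the other IgG peaks at these genes were not counted, so these counts are a description only. The midpoint of chr1:16896228-16896549 lay 409 bp from the TSS of the U1 small nuclear RNA gene RNU1-2, and this member did not overlap that gene. Its scaled pileup was 9.87 for IgG, 25.9 for FLAG-MCM8, 16.7 for S9.6 and 19.0 for the RNH1 list. The variant U1 gene RNVU1-34 overlapped another member, without an RNH1 peak. No member shared a 31-base word with the mitochondrial genome (0 of 304). All 6 IgG peaks on the mitochondrial genome itself, left out of the members, overlapped both other lists.

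The 49 members without an RNH1 peak included strong IgG peaks. The first by p, chr16:32084251-32084603 at the noncoding gene ENSG00000261727, had a fold of 9.32 for IgG, 4.62 for FLAG-MCM8 and 5.49 for S9.6. In RBFOX1, a splicing regulator, the intronic region chr16:6898558-6899184 had folds of 5.64, 6.32 and 5.49. In an intron of KIF16B, another kinesin, chr20:16288462-16288862 had 7.18, 7.82 and 5.80 over a 79-bp repeat that matched at 97.3% of bases.

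A further comparison asked whether places shared by MCM8 and R-loop peaks looked alike with and without an IgG peak. In the FLAG-MCM8 list, 308 peaks lay over members and 1483 were shared with S9.6 while free of IgG overlap. The promoter share was 26.9% over members and 64.3% without IgG, a difference of -37.3 points (-42.5 to -31.5), whereas the tandem share was 44.8% against 9.84%, a difference of 35.0 points (29.3 to 40.7). In the S9.6 list the promoter shares were 26.1% and 63.9% and the tandem shares 45.6% and 9.48%. The RNH1 list gave the same order, with promoter shares of 28.3% and 72.9% and tandem shares of 48.4% and 10.1%.

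In the FLAG-MCM8 list the promoter and tandem differences were of similar size among strong peaks. Within the strongest 25% of FLAG-MCM8 peaks by p, the promoter share was 26.6% over members and 68.6% without IgG, and the tandem share 49.3% and 12.7%. An RNH1 peak was more frequent over members there, at 87.3% against 76.3%. That difference was 11.0 points (5.24 to 15.9), beside 16.7 points over all strengths. In the S9.6 list the promoter difference was -37.8 points over all strengths and -48.1 points (-54.4 to -41.1) in the strongest 25%. The tandem difference of that list was 36.1 and 35.7 points in the same order. Its difference in the share with an RNH1 peak was 17.9 points over all strengths and 7.15 points (2.31 to 11.0) in the strongest 25%.

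**Figure D4:**
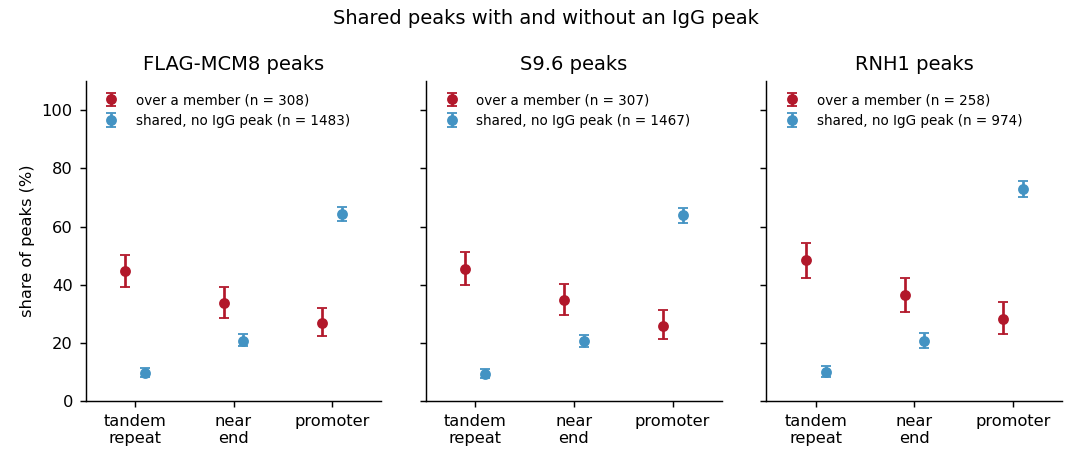
Shares (y axis, %) of peaks in a tandem repeat, within 5 Mb of a chromosome end and at a promoter, for FLAG-MCM8, S9.6 and RNH1 peaks over a member (red) and for peaks shared with the other lists that overlap no IgG peak (blue); the RNH1 panel requires overlap with both FLAG-MCM8 and S9.6, and bars are 95% Wilson intervals. Tandem repeats and chromosome ends are more frequent over members and promoters less frequent, at 26.9% against 64.3% in the FLAG-MCM8 panel.

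Members were frequent among the strongest peaks of every list. Of the 20 strongest peaks by p, 16 lay over a member for IgG, 14 for FLAG-MCM8, 12 for S9.6 and 13 for the RNH1 list. Of the 500 strongest, 110, 125, 95 and 99 did. The members thus made up 1.77% of the IgG list but 110 of its 500 strongest peaks. Strong peaks are more readily found in several lists, so these counts are a description. The RNH1 list alone was not used by the rule, but its library was made with S9.6, as was a list that the rule used.

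**Figure D5:**
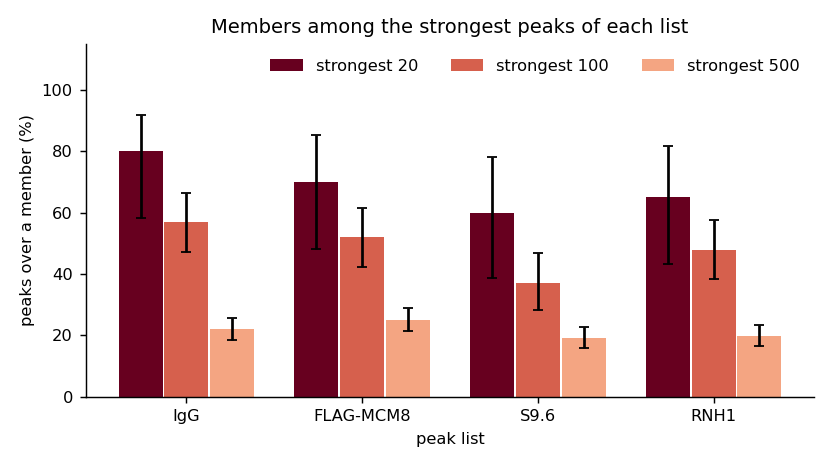
Share of the strongest 20, 100 and 500 peaks of each list (bars, y axis in %) that lie over a member; error bars are 95% Wilson intervals. Members cover 16, 14, 12 and 13 of the strongest 20 peaks in the 4 lists as ordered on the x axis, and 110, 125, 95 and 99 of the strongest 500.

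The members also differed from other IgG peaks within the same 25% of the list by p. Strength was not matched further within these parts, and 57 of the 100 strongest IgG peaks lay over members. In the strongest 25% of the IgG list, which held 210 members, the tandem share was 50% in members (43.3 to 56.7%) and 1.70% in the 3759 peaks with neither list, and the share with an RNH1 peak was 86.2% and 2.74%. In the same part of the list the tandem share was 20.5% with FLAG-MCM8 only and 19.1% with S9.6 only, and the share with an RNH1 peak 26.0% and 45.7%. In the weakest 25% 16 members had an RNH1 peak in 81.2% (57.0 to 93.4%).

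The summits of the lists coincided at few members, among them the repeat of chr16:1025259-1025661, where all 4 summits were at the same base. The nearest FLAG-MCM8 summit was a median of 147.5 bp from the IgG summit, the nearest S9.6 summit 135.5 bp and the nearest summit of the RNH1 list 105.0 bp. A distance of at most 50 bp was found for 80, 91 and 85 members. The median distance to FLAG-MCM8 was 90.0 bp in tandem members, 62.0 bp in members with copies elsewhere and 214.0 bp in members in a single place. Members were 307 to 1848 bp wide, with a median of 508.0 bp, beside 408.0 bp in the IgG peaks with FLAG-MCM8 only, 427.0 bp in those with S9.6 only and 382.0 bp in those with neither.

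At the edge of the rule, the members with the least overlap were chr22:35600900-35601257 with 1 bp, the H2AC11 promoter with 2 bp and an intronic repeat of CMIP (chr16:81614827-81615133) with 3 bp. Just outside it were the IgG peaks at ZBTB12BP (chr4:39770789-39771122), 1 bp from an S9.6 peak, and chr9:138159174-138159587 and chr9:92883849-92884284, 5 and 10 bp from a FLAG-MCM8 peak.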

How the data were processed

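CUT&Tag peak lists of 4 HEK293 libraries were analysed, and those of 5 mouse libraries were not used here. Per the labels, reads were processed with Trimmomatic, Bowtie2 and MACS2 2.1.2, and the study's methods name bowtie2 2.2.4, MACS2 2.2.7.1 and hg38. In the deposited lists the authors gave for each peak a fold (a ratio to the local background at the summit) and the Poisson p and q of that summit as −log10 values. The peak numbers skip 1465 peaks (FLAG-MCM8) to 2090 peaks (IgG) per list, of which 55.7% to 71.4% fell in runs between neighbours at least 2 Mb apart, so regions had been removed after calling by a rule not given in the sources used here. Of the members, 14 (4.61%) stood beside a skipped number. The share was 3.62% in the IgG peaks with FLAG-MCM8 only, 4.38% in those with S9.6 only and 1.85% in those with neither list. Read totals were not used.

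The whole-number pileup and local background that give both the fold and the p were solved by search and found for over 99.9% of peaks in every list. Peaks whose −log10 p reached 250 were not solved. The lowest background was 3.34 fragments for IgG, 1.81 for FLAG-MCM8, 2.28 for S9.6 and 2.48 for the RNH1 list. This scaling rests on 1 number per list, so ratios between libraries are approximate.

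TSSs, exons and genes were taken from GENCODE 44 and sequences from hg38. Words of 31 bases were counted on both strands of hg38, with unplaced sequences and without alternate ones. The repeat step is the shortest whose match came within 0.05 of the best. The measures were tested on simulated data. Software was numba 0.67.0, numpy 2.4.6, scipy 1.17.1, pandas 2.3.3, matplotlib 3.10.9 and Python 3.11.15.

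The members and the gene lists were chosen with earlier results of these data known. Regions named were the 10 strongest members in IgG, the 6 strongest in FLAG-MCM8 and in S9.6, the 6 promoter members of highest IgG fold, the 6 with most copies, the 6 widest, the 6 strongest without an RNH1 peak, members at the listed genes and those at the edge of the rule. FARP2 and ZBTB12BP follow from that rule, whereas HRNR, HNRNPA1, CNOT1, TOMM40 and DYNLL1 were picked after their values were seen. The tandem measure, the kinds of sequence, the positions near chromosome ends and the runs of members were also added after the data were seen.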

Additional observations from a re-analysis of the deposited data

How the results depend on the processing

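No paired analysis was possible because each group held 1 library, and for the same reason no library could be left out. Of 104 alternative values for 15 results, 67 stayed within the interval of the reported value, 37 moved and 0 reversed. For the number of members, staying meant within 1.5 times. For medians the interval was the quartiles over members, which is not an interval of the median, so few moves could be seen there. Only differences of shares could reverse, since counts, shares and medians cannot change sign. The alternative floor for the local background left its median at 1.64, as 32.4% of IgG peaks stood at the lowest background. The causes were not tested.

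The number of members was 304, and it was 150 when peaks had to share 50% of each other's length and 190 with a fold of at least 4 in every list. Under that 50% rule the share with an RNH1 peak was 76.7% (a difference of 75.4 points from the IgG peaks with neither list), the promoter share 18.7% (a difference of 9.03 points), and the tandem and multi-copy shares 54.0% each (a tandem difference of 52.4 points). With peaks within 1 kb counted as overlapping, the multi-copy share was 35.3% and the tandem share 33.3% (a difference of 32.2 points). With a −log10 q of at least 5, both shares were 48.3% (a tandem difference of 46.6 points). With a fold of at least 4, the tandem share was 50.5% (a difference of 49.4 points).

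The definition of a promoter moved its share to 19.7% within 500 bp, 41.8% within 3 kb and 19.1% for protein-coding genes alone. The multi-copy share was 47.0% with words of 24 bases and 21.7% for a word found at least 5 times.

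Other alternatives were chosen after seeing the data. Counting a tandem repeat above 50% or 70% of matching bases gave shares of 56.9% and 31.2% (differences of 54.6 and 30.7 points). Among summits in a single place, the share with an RNH1 peak was 75.9% (a difference of 74.3 points), at a promoter 42.9% (a difference of 33.3 points) and near a chromosome end 24.8%. In the strongest 25% of IgG peaks the promoter share was 21.4% (a difference of 11.6 points), the multi-copy share 48.6% and the tandem share 50% (a difference of 48.3 points). That strongest part held 69.1% of all members and 59.0% of the members outside tandem repeats. Keeping 1 peak per 100 kb moved none of the results it was applied to.

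Limits: peak lists show where a peak was called, not signal at places without one, and 1 library per group cannot separate an antibody from its culture. Repeats are placed by the aligner, and neither its treatment of reads with several matches nor the removal of duplicates is given in the sources used here.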
